A study of Mus musculus with 24 samples.

Results

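Ventral and central subregions of the suprachiasmatic nucleus (SCN) were compared in mice that received no light. The comparison rests on 8 of the 24 arrays in the series, chosen by their labels alone: 4 arrays of ventral SCN and 4 of central SCN, all from sham-treated animals, with replicate numbers 1 to 4 in each region. All animals were C57BL/6 mice, obtained at 8 weeks of age, with no transgene or mutation named. They had been kept in constant dim red light for at least 7 days, were given a sham treatment of 30 min in place of a light pulse, and were killed 3.5 h later. The subregions were cut by laser from haematoxylin-stained coronal sections of 25 µm, and the labels call the ventral tissue core and the central tissue middle. How the borders were drawn, whether animals were pooled, and the animals' sex and circadian time are not given in the sources used here. In each region arrays 1 and 2 belong to amplification and labelling batch A, and arrays 3 and 4 to batch B. Of the other arrays, 4 of dorsal SCN from sham-treated mice entered the same fit, and 8 of ventral and central SCN from light-pulsed mice gave the same contrast in separate samples, with a phase-advancing pulse of 30 min in place of the sham. The remaining 4 arrays, of dorsal SCN from light-pulsed mice, entered the fit of that contrast.

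The SCN sits on the optic chiasm at the floor of the hypothalamus and is the master circadian clock of mammals. Nearly all of its neurons use GABA, and they differ in the peptides they add to it. Fibres from the retina end mostly in the ventral part, near cells that make gastrin-releasing peptide (Grp) or vasoactive intestinal peptide (Vip), and vasopressin (Avp) cells lie around and above them. The optic chiasm below is a tract of myelinated axons ensheathed by oligodendrocytes.

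The values are the authors' log2 expression levels, 1 per probe set, and differences are on the log2 scale. A probe set's level is given for arrays 1, 2, 3 and 4 in that order. Levels of the batches are not on 1 scale: array medians were 3.52 to 3.61 for the batch A arrays used and 4.81 to 5.05 for those of batch B. The control probe sets of Gapdh at the 3′ end exceeded those at the 5′ end, which happens when cDNA is short, by 2.02 to 2.89 in batch A but 0.931 to 1.07 in batch B. Ventral and central arrays of 1 number were close in it (2.89 and 2.86, 2.02 and 2.06, 0.986 and 0.931, 0.957 and 1.07 for numbers 1 to 4). No array of the 8 stood apart, with a median correlation of 0.976 to 0.983 with the other arrays of its batch. Differences are ventral minus central, fitted with limma on the 12 sham arrays with batch as a term, and the error after ± is the standard error. A gene was called higher or lower at an adjusted p under 0.05 (Benjamini-Hochberg over the 13494 genes tested). The labels do not say that arrays came from separate animals, so p-values measure only the spread between these samples.

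Markers of the SCN were present on all 8 arrays. Vip lay at 11.24 to 12.86, Gad1 and Gad2, which make GABA, at 9.40 to 11.59 and 10.37 to 11.51, and Lhx1 and Six6, transcription factors of SCN development, at 9.83 to 12.26 and 6.98 to 9.03. Core is the word in the labels for the ventral tissue, and peptides of the core were set against both other regions. Vip was at 12.16, 12.07, 12.64 and 12.86 on the ventral arrays and 8.29, 6.87, 8.14 and 10.55 on the dorsal arrays, and Grp at 9.60, 9.64, 10.64 and 10.69 on the ventral and 6.87, 7.59, 8.42 and 9.11 on the dorsal arrays. For both genes all 4 ventral arrays lay above all 4 dorsal arrays, which is given without a test. Against central SCN, Vip was higher in all 4 pairs of same-numbered arrays but did not pass, and Grp, at 10.38, 10.52, 11.11 and 11.47 on the central arrays, was lower in all 4 pairs and did not pass (difference -0.73 ± 0.204, adjusted p = 0.0803). The arrays are called by position.

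Of the 13494 genes, 438 were called (3.25%), with 361 higher in ventral SCN (2.68%) and 77 lower (0.571%). The median difference over all genes tested was 0.03. Of the higher genes 152 differed by more than 1 on the log2 scale and 19 by more than 2, and of the lower genes 36 by more than 1. All 438 had the same direction in both batches, and 437 had it in all 4 pairs of same-numbered arrays, against 3268 of all genes tested (24.2%). For 435 of them the ventral and central arrays did not overlap in either batch, which held in 1 direction for 1616 of all genes (12%). These counts describe the arrays on which the genes were called, so they are no separate test of the calls. At an unadjusted p under 0.05 there were 1621 genes (12%). With the replicate number as a block in place of the batch the fit called 647 genes, 521 higher and 126 lower, among them 437 of the 438. Leaving out 1 array gave 252 genes without ventral array 1, 246 without ventral array 4 and 246 without central array 4.

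**Figure D1:**
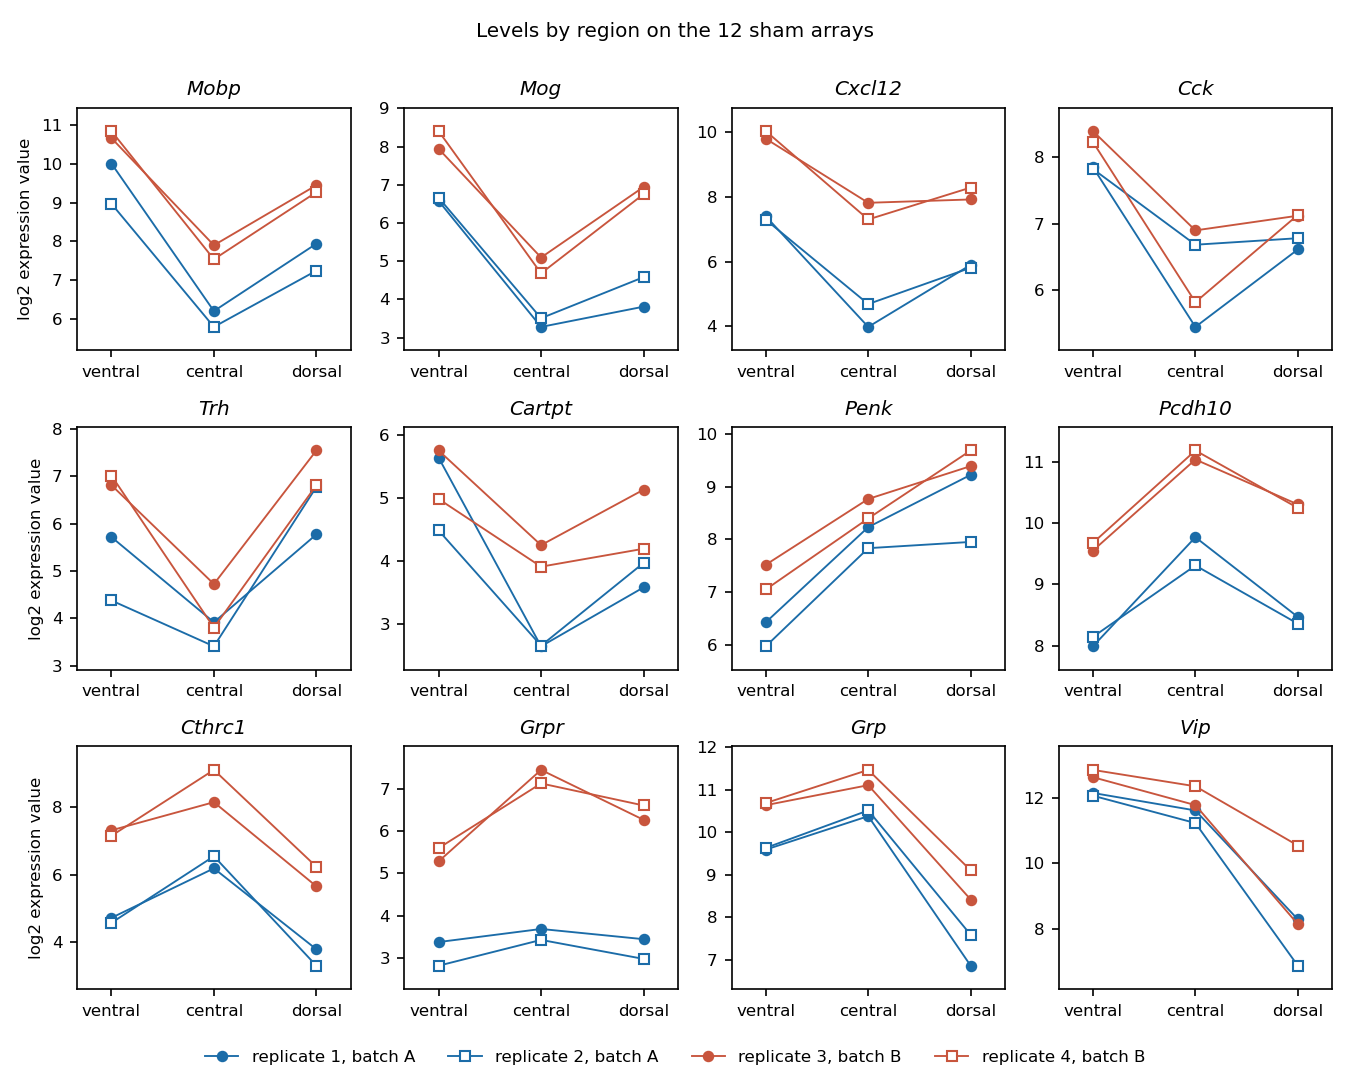
Deposited log2 level of selected genes on each of the 4 ventral, 4 central and 4 dorsal sham arrays, with colour showing the batch and lines joining arrays of 1 replicate number. Mobp lies between 8.97 and 10.85 on the ventral arrays and between 5.80 and 7.90 on the central arrays, while Vip is higher on the ventral array by 0.50 to 0.86 in the 4 pairs.

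Oligodendrocytes wrap axons in myelin, a stack of membrane rich in a few proteins and in galactolipids. Of 19 tested marker genes of these cells and of myelin, 16 were higher in ventral SCN and 0 lower. Of all genes tested 2.68% were higher and 0.571% lower. The median difference of the list was 1.65, against 0.03 over all genes. Mobp, a protein of compact myelin, had the largest difference of any called gene. Its level was 10.01, 8.97, 10.67 and 10.85 on the ventral arrays and 6.20, 5.80, 7.90 and 7.54 on the central arrays, and all 4 ventral arrays lay above all 4 central arrays. The fitted difference was 3.26 ± 0.229, adjusted p = 1.56e-05, or 9.60-fold. Mog, an outer-surface glycoprotein of myelin, was at 6.58, 6.66, 7.94 and 8.40 in ventral and 3.28, 3.51, 5.10 and 4.68 in central SCN. All its ventral arrays lay above all its central arrays, although the central arrays of batch A were near the bottom of the scale (3.25 ± 0.250, adjusted p = 2.21e-05). Mbp, which holds the membrane layers together, was at 11.66, 11.06, 11.90 and 12.19 in ventral and 8.86, 8.25, 9.90 and 9.39 in central SCN. It was 6.07-fold higher in ventral SCN (2.60 ± 0.219, adjusted p = 2.55e-05), with every ventral array above the central arrays. Other probe sets of Mbp differed by 0.06, 0.13, 1.50, 2.61, 2.63, 2.76 and 3.14.

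The remaining myelin genes covered the structure, the lipids and the control of the sheath. Mal, a proteolipid of myelin membranes (2.87, adjusted p = 4.22e-05), Cldn11, the tight-junction claudin of the sheath (2.55, adjusted p = 3.45e-05), and Ermn, a cytoskeletal protein of oligodendrocytes (2.64, adjusted p = 2.44e-05), were higher by more than 2 log2 units. Enzymes of myelin lipids were higher too, with Ugt8a, which makes galactosylceramide, at 2.30, adjusted p = 0.000721, Fa2h, which hydroxylates its fatty acids, at 2.26, adjusted p = 1.56e-05, and Aspa, which frees acetate from N-acetylaspartate, at 1.65, adjusted p = 0.0016. Smaller differences were seen for Mag, an adhesion protein next to the axon (1.23, adjusted p = 0.000295), Cnp, an enzyme of uncompacted myelin (1.26, adjusted p = 0.000584), and for the membrane proteins Opalin (1.38, adjusted p = 9e-04) and Tspan2 (1.09, adjusted p = 0.000848). Transcription factors of the lineage also passed, namely Sox10 (1.69, adjusted p = 0.00123), Olig1 (1.21, adjusted p = 0.00184) and Olig2 (0.84, adjusted p = 0.00494). Another probe set of Sox10 differed by 0.53. The members that did not pass were Qdpr (0.33, adjusted p = 0.25), Nkx6-2 (0.32, adjusted p = 0.362) and Gjb1 (0.26, adjusted p = 0.583). The summed linear level of the list in batch A was 8898 to 12070 on the ventral and 3258 to 4141 on the central arrays, and in batch B 19050 to 21800 and 8666 to 9848. In tissue pieces of this kind more cells of a type and more RNA per cell cannot be told apart.

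**Figure D2:**
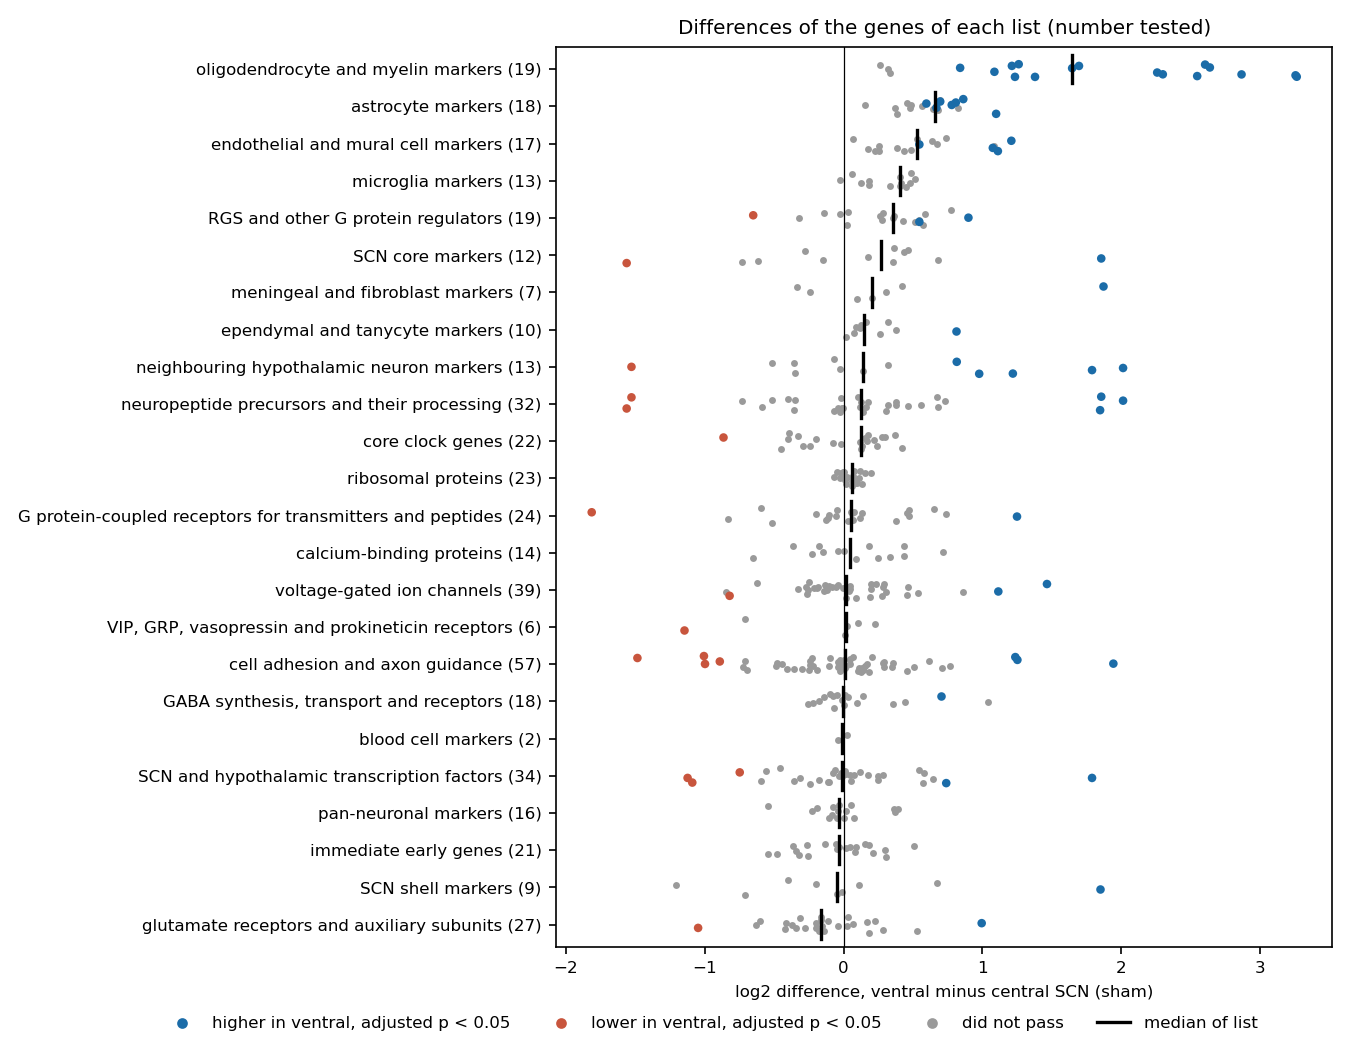
Each point is 1 tested gene of a list, placed by its log2 difference of ventral minus central sham SCN, and the black bar is the median of the list. Lists are ordered by their median, from 1.65 for the oligodendrocyte and myelin markers to -0.16 for the glutamate receptors, and the coloured points are genes with an adjusted p under 0.05.

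Promoters are shown for Mobp and Mog, the myelin genes with the largest differences, as the 250 bases before the annotated start in RefSeq (GRCm38.p6), 5′ to 3′ on the gene's strand. The Mobp window is chr9:120149492-120149741 on the plus strand and the Mog window chr17:37023399-37023648 on the minus strand. Capitals mark CTTTGT, the reverse complement of ACAAAG, a core sequence bound by SOX factors such as Sox10, searched on both strands.
Mobp: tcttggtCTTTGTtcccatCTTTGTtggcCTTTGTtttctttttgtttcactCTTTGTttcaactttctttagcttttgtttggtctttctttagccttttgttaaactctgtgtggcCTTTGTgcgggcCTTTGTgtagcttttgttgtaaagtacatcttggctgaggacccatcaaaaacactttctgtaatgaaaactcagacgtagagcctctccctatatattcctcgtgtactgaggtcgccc
Mog: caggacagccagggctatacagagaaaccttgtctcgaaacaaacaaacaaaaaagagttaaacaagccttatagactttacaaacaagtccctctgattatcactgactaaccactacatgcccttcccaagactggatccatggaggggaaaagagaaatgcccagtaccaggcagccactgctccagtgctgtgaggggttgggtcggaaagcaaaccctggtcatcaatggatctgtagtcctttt
The Mobp window held 6 matches, beginning 243, 231, 221, 198, 132 and 120 bases before the start, and the Mog window held 0. ACAAAG or its complement occurred in 14.8% of the windows of the 10880 tested genes that had one, in 20.6% of those of 286 higher genes and in 10% of those of 60 lower genes, and in 16.5% of all 32851 promoter windows. These shares are given without a test.

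Several of the largest differences were in genes outside the myelin list, and which cells made these RNAs was not tested. Cxcl12, a chemokine, was at 7.40, 7.29, 9.79 and 10.03 in ventral and 3.99, 4.69, 7.81 and 7.30 in central SCN, 6.40-fold apart (2.68 ± 0.217, adjusted p = 2.44e-05). Another probe set of Cxcl12 differed by 0.78. Tmem88b, a membrane protein gene, stood at 8.62, 8.62, 10.09 and 10.61 against 5.76, 4.76, 8.04 and 7.58 (2.95 ± 0.243, adjusted p = 2.44e-05). In both genes the lowest ventral array was above the highest central array of its batch by more than 1 log2 unit. Pmp22, a tetraspan protein best known from peripheral myelin, differed by 2.45 ± 0.191, adjusted p = 2.21e-05. Gsn, gelsolin, which severs actin filaments, differed by 2.27 ± 0.234, adjusted p = 0.000125, and Neat1, a nuclear RNA that builds paraspeckles, by 2.33 ± 0.227, adjusted p = 8.34e-05. Another probe set of Neat1 differed by -0.07, so the call rests on the brighter one. Other probe sets of Gsn differed by 0.016, 0.795, 1.30, 1.32 and 2.29.

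Astrocytes take up transmitter and potassium and contact vessels. Of their 18 tested markers 7 were higher in ventral SCN and 0 lower, against 2.68% and 0.571% of all genes. All 18 differences were above 0, and the median was 0.66. The block by replicate number raised the count to 10, and called 521 of all 13494 genes as higher. S100b, a calcium-binding protein of astrocytes, was at 8.27, 7.99, 9.29 and 9.54 in ventral and 7.0, 6.75, 8.42 and 8.54 in central SCN, so that its arrays were separate within each batch (1.10 ± 0.133, adjusted p = 0.00046). Ntsr2, a neurotensin receptor of astrocytes (0.86, adjusted p = 0.00184), Aldoc, a glycolytic aldolase (0.81, adjusted p = 0.0025), Gjb6, which encodes connexin 30 (0.78, adjusted p = 0.00566), Slc7a10, an amino acid carrier (0.70, adjusted p = 0.0347), Agt, angiotensinogen (0.67, adjusted p = 0.0176), and Sox9, a glial transcription factor (0.60, adjusted p = 0.0275), were higher by less than 1. Slc7a10, Agt and Sox9 lost their calls when single arrays were left out, with adjusted p up to 0.131 (without ventral array 4), 0.0685 and 0.102 (both without central array 4). Gfap, the intermediate filament of astrocytes, did not pass (0.37, adjusted p = 0.622). Other probe sets of Gfap differed by 0.31 and 0.999. The summed level of the list was 14800 to 15920 on ventral and 10550 to 10580 on central arrays in batch A, and 40290 to 42980 and 30790 to 32520 in batch B.

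Among 17 tested genes of vessel walls the median was 0.53, and the block called 7 as higher, against 521 of all 13494 genes. In the main fit 4 were higher and 0 lower, against 2.68% and 0.571% of all genes. They were Abcb1a, the drug efflux pump of the blood-brain barrier (1.21, adjusted p = 0.0291), Slco1a4, an organic anion carrier (1.11, adjusted p = 0.0135), Cldn5, the claudin of endothelial junctions (1.07, adjusted p = 0.0388), and Rgs5, a regulator of G protein signals in pericytes (0.55, adjusted p = 0.0442). Each of these calls was lost in at least 2 of the 8 fits that left out 1 array. Rgs5 lost its call whichever of the 8 arrays was left out (adjusted p up to 0.138, without central array 3), Cldn5 reached 0.137, Abcb1a 0.109 and Slco1a4 0.0537, each without ventral array 1. Another probe set of Abcb1a differed by 0.14. Ptgds, prostaglandin D synthase, made by meninges and oligodendrocytes, was the sole called gene of 7 meningeal and fibroblast markers, against 3.25% of all genes. Its level was 12.19, 11.67, 11.61 and 11.76 in ventral and 10.16, 10.03, 10.18 and 9.40 in central SCN, with all ventral arrays above all central ones (1.86 ± 0.207, adjusted p = 0.000227, 3.64-fold). Collagen genes of that list did not pass, for example Col1a2 at 0.42, adjusted p = 0.658.

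No microglial marker passed among 13 tested with limma, and 4 had an unadjusted p under 0.05 (12% of all genes did). With the replicate block 1 passed, against 647 of all 13494 genes. The median was 0.40, with 12 differences above 0. Tyrobp, a signalling adaptor (0.52, adjusted p = 0.26), and Ctss, cathepsin S (0.49, adjusted p = 0.29), had the smallest p, and Ctss was the gene that passed with the block (adjusted p = 0.0443). Of 10 markers of ependymal cells and tanycytes, which line the third ventricle, 1 was higher, against 2.68% of all genes. It was Pltp, a phospholipid transfer protein (0.81, adjusted p = 0.00393). Rarres2, the precursor of chemerin, was at 0.38, adjusted p = 0.385. The red cell gene Slc4a1 (-0.04, adjusted p = 0.98) and the neutrophil gene S100a9 (0.02, adjusted p = 0.99) were near 0 in difference, with summed levels of 22.2 to 34.2 on all 8 arrays. The share that glial and vascular cells had in the other differences below was not tested.

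Pan-neuronal markers gave no called gene. Of 16 tested none passed with limma or with the replicate block, and 3 had an unadjusted p under 0.05 (12% of all genes did), with a median of -0.04 and differences from -0.55 to 0.39. Rbfox3, which encodes the neuronal nuclear protein NeuN, was at -0.55 ± 0.202, adjusted p = 0.242 and Nefl, the light neurofilament, at 0.39 ± 0.156, adjusted p = 0.295. Summed levels of the list overlapped between the regions in batch A, at 16310 to 16810 in ventral and 15390 to 17330 in central SCN, and in batch B were 36510 to 37450 and 38180 to 40030. Of 23 ribosomal protein genes 0 passed with limma, 0 with the block and 0 at an unadjusted p under 0.05, with a median of 0.06 and differences of at most 0.20. Rpl22 (0.20, adjusted p = 0.667) and Rps20 (0.13, adjusted p = 0.834) had the smallest p.

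Neuropeptides gave differences in both directions, with 3 of 32 tested precursor and processing genes higher in ventral SCN and 2 lower (median 0.12). Over all genes 2.68% were higher and 0.571% lower. Cck, the cholecystokinin precursor, was at 7.85, 7.82, 8.39 and 8.23 on the ventral arrays and 5.45, 6.69, 6.90 and 5.82 on the central arrays. Every ventral array was above every central array, and the ventral arrays were the closer together. The difference of 1.86 ± 0.250, adjusted p = 9e-04 was 3.62-fold. Cartpt, the precursor of the CART peptides, was at 5.64, 4.48, 5.75 and 4.98 in ventral and 2.65, 2.66, 4.25 and 3.91 in central SCN (1.85 ± 0.303, adjusted p = 0.0038). Its central arrays of batch A were near the bottom of the scale. Trh, the thyrotropin-releasing hormone precursor, was at 5.72, 4.38, 6.81 and 7.01 against 3.92, 3.41, 4.73 and 3.81 (2.01 ± 0.357, adjusted p = 0.00625), with ventral arrays above the central arrays of their batch.

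Penk, the enkephalin precursor, was lower in ventral SCN. It was at 6.43, 5.98, 7.52 and 7.05 on the ventral arrays and 8.23, 7.83, 8.77 and 8.40 on the central arrays. All central arrays were above all ventral arrays, with ventral SCN 2.95-fold lower in the fit (-1.56 ± 0.248, adjusted p = 0.00326). Tac2, the neurokinin B precursor, stayed between 4.42 and 4.64 on the ventral arrays and was at 6.19, 5.15, 6.23 and 6.50 on the central arrays. Its call (-1.53 ± 0.359, adjusted p = 0.0335) was lost without 7 of the 8 arrays in turn, with an adjusted p up to 0.113 without ventral array 4.

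The promoter of Cck is shown because the gene had the largest difference of the core markers, as the 250 bases before its RefSeq start on the minus strand, chr9:121495695-121495944 (GRCm38.p6). Capitals mark CACGTG, the E-box bound by CLOCK and ARNTL, and TGCGTCA, an element related to the cAMP response element.
Cck: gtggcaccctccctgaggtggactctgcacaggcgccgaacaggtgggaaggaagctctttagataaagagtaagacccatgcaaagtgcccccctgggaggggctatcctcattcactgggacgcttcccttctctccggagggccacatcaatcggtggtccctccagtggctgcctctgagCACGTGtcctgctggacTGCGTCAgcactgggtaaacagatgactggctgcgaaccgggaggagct
The E-box began 66 bases and the TGCGTCA element 49 bases before the start, without overlap. CACGTG occurred in 9.6% of the windows of genes tested, in 6.29% of those of higher genes and in 6.67% of those of lower genes, and in 6.02% of all windows. TGCGTCA occurred in 3.21% of genes tested, 2.45% of higher genes, 1.67% of lower genes and 1.75% of all windows. The full cAMP response element TGACGTCA occurred in 2.95%, 2.1%, 0% and 1.55% of the same sets. Each motif was searched on both strands, and the shares are given without a test.

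Classical markers of SCN core and shell differed in both directions. Of 12 core markers Cck was higher and Penk lower, and of 9 tested shell markers Cartpt was higher and 0 lower (medians 0.27 and -0.04). Over all genes the main fit gave 2.68% higher and 0.571% lower. With the replicate block 2 shell markers were higher and 2 lower, against 521 and 126 of all 13494 genes. At an unadjusted p under 0.05 there were 5 core and 5 shell markers, against 12% of all genes, and 6 and 5 had 1 direction in all 4 pairs, against 24.2% of all genes. Vip was at 12.16, 12.07, 12.64 and 12.86 on the ventral and 11.62, 11.24, 11.79 and 12.36 on the central arrays. The ventral arrays were higher within each batch, but the difference did not pass (0.68 ± 0.446, adjusted p = 0.662, 95% interval -0.28 to 1.64). That error comes from the fit with the dorsal arrays, whose Vip levels were farther apart than those of either other region. It does not measure the spread of the ventral and central arrays alone. Grp passed in the lower direction with the replicate block (adjusted p = 0.0368). Avp, made by shell cells, was at 6.28, 6.61, 7.98 and 7.78 in ventral and 5.33, 6.23, 7.55 and 6.84 in central SCN. Its paired differences were 0.95, 0.38, 0.43 and 0.94 (0.67 ± 0.214, adjusted p = 0.139), and the block brought it past the threshold (adjusted p = 0.012).

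Other members of both lists gave smaller or less even differences. Prok2, a secreted output signal of the clock, was at 3.03, 3.41, 8.39 and 6.80 in ventral and 3.67, 4.06, 9.73 and 8.99 in central SCN, lower within each batch (-1.20 ± 0.325, adjusted p = 0.0684, with the block adjusted p = 0.0344). Calb1 and Calb2, the calcium-binding proteins calbindin and calretinin, differed by -0.15 ± 0.146 and 0.43 ± 0.170 and did not pass (adjusted p = 0.835 and 0.281). Rgs16, a G protein regulator with a daily rhythm in the SCN, did not pass (0.36 ± 0.293, adjusted p = 0.759). Nts, the neurotensin precursor, differed by -0.37 in batch A and 1.30 in batch B, so no direction can be given (adjusted p = 0.769). Sst, the somatostatin precursor, likewise turned from 0.57 in batch A to -1.60 in batch B (adjusted p = 0.8). Gad1 (0.14, adjusted p = 0.919) and Gad2 (0.03, adjusted p = 0.981) did not pass.

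Markers of neurons found around the SCN were also unequal (median 0.14). Of 13 tested 5 were higher in ventral SCN and 1 lower, against 2.68% and 0.571% of all genes. The higher ones were Trh, Otp, Slc17a6, Slc6a3 and Pmch, and the lower one was Tac2. Slc17a6, a vesicular glutamate transporter absent from most SCN neurons, was at 4.08, 3.78, 6.42 and 6.26 in ventral and 2.71, 3.78, 4.25 and 4.92 in central SCN (1.22 ± 0.309, adjusted p = 0.0497). Central array 2 equalled ventral array 2 to 2 decimals, and the call was lost without any of 7 arrays (adjusted p up to 0.15, without central array 3). Slc6a3, the dopamine transporter, was at 8.21, 7.77, 8.45 and 9.05 against 7.23, 6.64, 7.60 and 8.12 (0.98 ± 0.226, adjusted p = 0.0305), and its call was lost without 5 single arrays (adjusted p up to 0.115, without ventral array 1). Pmch, the melanin-concentrating hormone precursor, was near the bottom of the scale, at 4.74, 4.75, 5.45 and 4.70 and 4.16, 3.81, 4.20 and 4.21 (0.81 ± 0.168, adjusted p = 0.0173), and 6 single omissions ended its call (adjusted p up to 0.0609, without central array 4). The summed level of the list was 559 to 696 on ventral and 389 to 537 on central arrays in batch A, and 1079 to 1286 and 723 to 853 in batch B. Oxt, the oxytocin precursor (-0.03, adjusted p = 0.994), Pomc (-0.07, adjusted p = 0.976) and Npy (-0.36, adjusted p = 0.634) did not pass.

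Of 34 tested transcription factors of the SCN and hypothalamus 2 were higher in ventral SCN and 3 lower (median -0.01). With the replicate block 3 were higher and 5 lower, against 521 and 126 of all 13494 genes. Over all genes the main fit gave 2.68% higher and 0.571% lower. Otp, which specifies peptide neurons of the paraventricular region, was at 5.44, 5.22, 7.88 and 8.27 on ventral and 3.48, 4.86, 5.30 and 6.0 on central arrays, separate within each batch (1.79 ± 0.335, adjusted p = 0.00896). Dlx1 and Dlx2, homeobox factors of forebrain GABA neurons, were both lower in ventral SCN. Dlx2 was at 8.10, 8.76, 10.81 and 10.51 in ventral and 9.66, 9.96, 11.39 and 11.52 in central SCN (-1.09 ± 0.178, adjusted p = 0.0038, 2.13-fold). Dlx1 was at 4.97, 4.39, 7.63 and 6.76 against 5.59, 6.02, 8.60 and 8.04 (-1.12 ± 0.210, adjusted p = 0.00891), again lower on each ventral array than on the central arrays of its batch. Lmo3, a LIM-only cofactor, was lower (-0.75 ± 0.137, adjusted p = 0.00778). Nfib, a nuclear factor I gene of neurons and glia, was higher (0.74 ± 0.169, adjusted p = 0.0292), but 2 of its other probe sets went the other way (-0.24 and -0.34) and 6 single omissions ended the call (adjusted p up to 0.106, without central array 4).

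The SCN factors of the panel had differences below those of Otp and the Dlx genes. Six6 was lower by -0.59 ± 0.168 (adjusted p = 0.085, with the block 0.0312) and Lhx1 was at -0.46, adjusted p = 0.385. Rorb, an orphan receptor of the clock, was at -0.02, adjusted p = 0.99 and Zfhx3, a zinc finger factor that drives SCN peptide genes, at -0.25, adjusted p = 0.584.

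Of 22 core clock genes 0 were higher in ventral SCN and 1 lower (median 0.12), against 2.68% and 0.571% of all genes. Arntl2, a paralog of the activator Arntl, was at 5.06, 4.95, 7.67 and 7.96 in ventral and 6.05, 5.72, 8.56 and 8.78 in central SCN, lower on every ventral array than on the central arrays of its batch (-0.87 ± 0.175, adjusted p = 0.0152). Without ventral array 3 or central array 4 the call was lost (adjusted p up to 0.0538). The repressors Per1 (0.17, adjusted p = 0.902), Per2 (-0.29, adjusted p = 0.807) and Cry1 (-0.40, adjusted p = 0.205) did not pass. Neither did the activator Arntl (-0.33, adjusted p = 0.264), the output factor Dbp (0.22, adjusted p = 0.658) nor Nr1d1, the REV-ERB alpha repressor (0.12, adjusted p = 0.865). Of 21 immediate early genes, which neurons switch on within minutes of stimulation, none passed with limma or with the block, and 1 had an unadjusted p under 0.05, against 12% of all genes (median -0.04). Btg2 (0.51, adjusted p = 0.272) and Nr4a3 (-0.48, adjusted p = 0.551) had the smallest p.

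Receptors for SCN peptides gave 1 lower gene among 6 tested and 0 higher (median 0.01), against 0.571% and 2.68% of all genes. Grpr, the receptor for gastrin-releasing peptide, was at 3.38, 2.82, 5.28 and 5.60 on ventral and 3.69, 3.43, 7.44 and 7.13 on central arrays. The gap was -1.84 in batch B and -0.46 in batch A, where levels were close to the bottom of the scale (-1.15 ± 0.254, adjusted p = 0.0245). It lost its call without 5 single arrays (adjusted p up to 0.0927, without ventral array 4). Vipr2, the VIP receptor that SCN neurons need to stay in step, was at 0.23, adjusted p = 0.791 and Prokr2, the prokineticin receptor, at 0.11, adjusted p = 0.929. Avpr1a, a vasopressin receptor, was at -0.71 ± 0.191, adjusted p = 0.0668, and passed with the block (adjusted p = 0.0291).

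Other G protein-coupled receptors gave 1 higher and 1 lower gene among 24 tested (median 0.06), against 2.68% and 0.571% of all genes. Htr2c, a serotonin receptor, was higher in ventral SCN, at 8.0, 7.56, 8.70 and 9.33 against 6.66, 6.12, 7.54 and 8.28 (1.25 ± 0.213, adjusted p = 0.00495). Ghsr, the ghrelin receptor, was lower, at 3.33, 3.26, 5.54 and 5.09 on ventral and 3.49, 3.85, 8.89 and 8.24 on central arrays. Its levels were near the floor in batch A (difference -0.37) and far apart in batch B (-3.25), which gave -1.81 ± 0.438, adjusted p = 0.0377. The call was lost with the replicate block (adjusted p = 0.0512) and without 5 single arrays (adjusted p up to 0.125, without ventral array 3). Adgrg2, an adhesion receptor, had the largest difference of all lower genes, at 3.03, 3.39, 4.12 and 4.18 against 4.55, 4.58, 7.57 and 7.02 (-2.25 ± 0.347, adjusted p = 0.00255), with differences of -1.36 and -3.14. Its ventral levels lay below the medians of their arrays, near the bottom of the scale, so the size and rank of this difference are uncertain. Another probe set of Adgrg2 differed by -0.65.

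Of 19 RGS and other G protein regulators, which shape the response to receptors, Rgs10 and Rgs5 were higher and Gng4 lower (median 0.35). Over all genes 2.68% were higher and 0.571% lower. At an unadjusted p under 0.05 there were 8 regulators, against 12% of all genes. Rgs10 was at 0.90 ± 0.189, adjusted p = 0.0186 and lost its call without 5 single arrays (adjusted p up to 0.0762, without ventral array 4). Gng4, a G protein gamma subunit, was at -0.65 ± 0.151, adjusted p = 0.0317, lost its call without 6 (adjusted p up to 0.103, without ventral array 1), and had another probe set at 0.07. Prkg1, a cGMP-dependent protein kinase, was lower in ventral SCN. Its level was 3.88, 3.95, 6.34 and 6.14 in ventral and 5.42, 5.95, 7.94 and 7.75 in central SCN, with differences of -1.77 and -1.60 (-1.69 ± 0.141, adjusted p = 2.44e-05). Another probe set of Prkg1 differed by -0.48.

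Transmitter receptors and channels differed in single genes. Grin3a, an NMDA receptor subunit that lowers calcium entry, was lower in ventral SCN, at 5.49, 5.84, 7.85 and 7.92 against 7.12, 6.36, 8.83 and 8.97 (-1.05 ± 0.182, adjusted p = 0.00544), and Cacng5, an AMPA receptor auxiliary subunit, was higher (0.99 ± 0.178, adjusted p = 0.0065). They were the called genes among 27 glutamate receptor genes (median -0.16), against 2.68% higher and 0.571% lower of all genes. Shisa6, an AMPA receptor partner outside that list, was lower, at 2.92, 2.80, 4.27 and 4.0 in ventral and 5.03, 3.78, 6.57 and 7.21 in central SCN (-2.15 ± 0.290, adjusted p = 9e-04). Ventral Shisa6 levels were below the medians of their arrays, near the bottom of the scale, so the size is uncertain. Another probe set of Shisa6 differed by -0.90. Of 18 GABA genes (median -0.0032) 3 were higher with the block, against 521 of all 13494 genes. In the main fit 1 was higher and 0 lower, against 2.68% and 0.571% of all genes. It was Slc12a2, the chloride importer NKCC1 (0.70 ± 0.139, adjusted p = 0.0134), a call lost without ventral array 1 or 4 (adjusted p up to 0.0635). Gabra5, a GABA receptor subunit, did not pass without the block (1.04, adjusted p = 0.0581; with it adjusted p = 0.0213).

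Potassium channel genes made up the calls among 39 voltage-gated channel genes (median 0.02), 2 higher and 1 lower. With the block 4 were higher and 1 lower, against 521 and 126 of all 13494 genes. Over all genes the main fit gave 2.68% higher and 0.571% lower. Kcna1, a delayed rectifier subunit found at myelinated axons, was higher, at 3.49, 3.49, 6.61 and 6.02 against 2.51, 2.97, 4.45 and 3.82 (1.46 ± 0.272, adjusted p = 0.00868). In batch A its levels were near the bottom of the scale. Kcnip4, a partner of A-type channels, was higher (1.11 ± 0.228, adjusted p = 0.0165), but not without ventral array 1, central array 3 or central array 4 (adjusted p up to 0.0655). Kcnh1, an ether-a-go-go channel subunit, was lower (-0.82 ± 0.145, adjusted p = 0.00624). With the mean of all probe sets of a gene, none of the 3 passed (adjusted p = 0.058 for Kcna1, 0.251 for Kcnip4 and 0.15 for Kcnh1). Of 14 calcium-binding protein genes (median 0.05) 0 passed with limma, and 5 had an unadjusted p under 0.05, against 12% of all genes. The block called 1 as higher and 1 as lower, against 521 and 126 of all 13494 genes. Hpca, hippocalcin (-0.65, adjusted p = 0.073), passed with the block (adjusted p = 0.0427), and Cplx2, complexin 2, differed by 1.32 in batch A but by 0.12 in batch B (adjusted p = 0.117).

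Cell adhesion and guidance genes were split, with 3 of 57 higher in ventral SCN and 4 lower (median 0.01). Over all genes 2.68% were higher and 0.571% lower. Lrrtm1, a synaptic adhesion protein, was at 7.66, 6.85, 6.44 and 7.27 in ventral and 5.47, 4.85, 4.76 and 5.36 in central SCN (1.94 ± 0.394, adjusted p = 0.0154), and lost its call without 4 single arrays (adjusted p up to 0.0621, without ventral array 1). Other probe sets of Lrrtm1 differed by 0.28 and 0.77. Sema6d, a membrane semaphorin (1.25 ± 0.188, adjusted p = 0.00213), and Pcdh8, a protocadherin (1.24 ± 0.183, adjusted p = 0.00184), were also higher. Pcdh10, another protocadherin, was lower. Its level was 7.99, 8.14, 9.55 and 9.68 on ventral and 9.77, 9.31, 11.04 and 11.19 on central arrays, with differences of -1.47 and -1.50 (-1.48 ± 0.135, adjusted p = 4.51e-05). Other probe sets of Pcdh10 differed by -0.43, -0.57, -0.64, -1.33 and -1.38. Nrp2, a semaphorin co-receptor (-1.01, adjusted p = 0.000376), and Slitrk1, a synaptic adhesion protein (-1.0, adjusted p = 0.00544), were lower as well. Nectin3, a nectin, was lower by -0.89 ± 0.212 (adjusted p = 0.0349) and lost its call without 7 of the 8 arrays in turn (adjusted p up to 0.101, without ventral array 1).

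The other genes with the largest lower differences had various roles. Cbln4, a cerebellin that links synaptic partners, was at 5.77, 6.33, 7.79 and 7.97 in ventral and 7.74, 7.44, 9.14 and 10.08 in central SCN (-1.63 ± 0.267, adjusted p = 0.0038, 3.10-fold). Csgalnact1, an enzyme of chondroitin sulfate synthesis, was at 7.06, 7.03, 8.25 and 8.06 against 8.37, 8.40, 9.92 and 9.83 (-1.53 ± 0.172, adjusted p = 0.000259). The central arrays of both genes lay above the ventral arrays of their batch. Cthrc1, a secreted protein with a collagen-like stretch, was at 4.72, 4.57, 7.32 and 7.16 in ventral and 6.19, 6.55, 8.16 and 9.12 in central SCN (-1.56 ± 0.210, adjusted p = 9e-04). Mctp2, a membrane protein with C2 domains, differed by -1.98 ± 0.270, adjusted p = 0.000923, and Det1, a component of a ubiquitin ligase complex, by -1.62 ± 0.149, adjusted p = 5.02e-05. Ventral levels of Mctp2 were at most 4.06, near the bottom of the scale. Another probe set of Det1 differed by -0.62.

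The light-pulsed arrays gave the same contrast in samples that share no array with the sham comparison. There 86 genes passed (0.637%), 70 higher in ventral SCN (0.519%) and 16 lower (0.119%), and the median over all genes was 0.08. The replicate block called 144, 123 higher and 21 lower. Without any 1 of the 8 light arrays the count fell to between 21 (without ventral light array 3) and 57 (without ventral light array 2), and without dorsal light array 4, which stands apart in RNA quality, it was 365. Of the 438 genes called in the sham arrays 437 had the same sign in the light arrays, against 8834 of all genes tested (65.5%), and 79 were called in both, 65 higher and 14 lower. The exception was Abra, an actin-binding activator of transcription, at -0.71 in the sham and 0.22 in the light arrays. The median size over the 438 genes was 0.942 in the sham and 0.946 in the light arrays.

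Leading genes of the light arrays were those of the sham arrays. Mobp was at 9.81, 9.37, 11.03 and 10.72 on ventral and 6.88, 5.38, 8.23 and 8.04 on central light arrays, which did not overlap (3.10 ± 0.300, adjusted p = 0.0011). Among the genes that passed, Tmem88b (3.44 ± 0.506, adjusted p = 0.0139) and Mog (3.17 ± 0.226, adjusted p = 0.000168) were the others with the largest higher differences. Adgrg2 (-2.64 ± 0.425, adjusted p = 0.0211), Cbln4 (-1.98 ± 0.334, adjusted p = 0.0236) and Cthrc1 (-1.78 ± 0.274, adjusted p = 0.0175) had the largest lower ones among genes that passed. Mctp2 differed by -2.16 and did not pass (adjusted p = 0.0513). Adgrg2 was at 2.38, 3.19, 4.55 and 3.57 on the ventral light arrays, near the bottom of the scale, so its size is uncertain. Of the oligodendrocyte list 14 genes were higher in the light arrays and 0 lower (median 1.57), against 0.519% and 0.119% of all genes. Cck (2.34 ± 0.310, adjusted p = 0.00696) and Penk (-1.36 ± 0.154, adjusted p = 0.00291) kept their opposite directions, and Grp passed as lower in ventral SCN (-1.05 ± 0.170, adjusted p = 0.0219), at 9.06, 9.01, 10.50 and 10.58 against 10.44, 9.95, 11.52 and 11.43. Cartpt did not pass there (0.74 ± 0.325, adjusted p = 0.697).

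Whether the difference between the regions itself changed with light was tested over all 24 arrays. No gene of 13494 passed (0%), with limma or with the replicate block, and 111 and 224 genes had an unadjusted p under 0.05. The 111 genes were 0.823% of those tested, below the share of 0.05 that would fall there with no effect at all. This fit held dorsal light array 4, and without it 264 genes had an unadjusted p under 0.05. The absence of calls therefore does not show that the difference was the same in sham and light. Tinf2, a shelterin protein of telomeres, had the smallest p. Its difference was -0.08 ± 0.158 in the sham arrays and 1.09 ± 0.209, adjusted p = 0.0452 in the light arrays. The limma test of the change between them gave -1.17 ± 0.258 (adjusted p = 1).

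A further contrast asked where the central SCN did not lie midway between ventral and dorsal SCN in the sham arrays. It shares the central and ventral arrays with the comparison above and is given as values beside it, as central minus midpoint. Central SCN departed from the midpoint in 584 genes (4.33%), with 153 above it (1.13%) and 431 below (3.19%), and the median over all genes was -0.03. With the replicate block 859 genes passed, 236 above and 623 below, and without central array 4 297 did. Genes above the midpoint were led by Cthrc1, Ccn3 and Shisa6. Ccn3, a secreted matrix-associated protein, was at 7.85, 7.59, 8.68 and 8.66 in ventral, 9.19, 9.0, 9.55 and 9.80 in central and 5.62, 6.05, 6.47 and 7.57 in dorsal SCN, so that the central arrays were the highest (2.07 ± 0.187, adjusted p = 8.83e-05, ventral minus central -1.19, adjusted p = 0.00737). Cthrc1 was at 3.78, 3.29, 5.66 and 6.24 in dorsal SCN, below both other regions in each batch (2.16 ± 0.182, adjusted p = 6.17e-05). Shisa6 was at 2.63, 3.07, 5.05 and 5.17 in dorsal SCN (1.91 ± 0.251, adjusted p = 0.000805), with ventral levels near the bottom of the scale. Grp, at 6.87, 7.59, 8.42 and 9.11 in dorsal SCN, was also above its midpoint in central SCN (1.80 ± 0.177, adjusted p = 9.42e-05).

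Genes below the midpoint were led by Mobp, Trh and Mog. Mobp was at 7.94, 7.25, 9.45 and 9.27 in dorsal SCN, between the ventral and central levels (-2.44 ± 0.198, adjusted p = 5.4e-05), and Mog at 3.81, 4.58, 6.94 and 6.75 (-2.32 ± 0.217, adjusted p = 8.83e-05). Of the oligodendrocyte list 16 genes were below the midpoint in central SCN and 0 above, against 3.19% and 1.13% of all genes. Trh was at 5.77, 6.77, 7.54 and 6.81 in dorsal SCN, above the central arrays in both batches (-2.38 ± 0.309, adjusted p = 0.000743). Otp, at 5.71, 6.16, 9.02 and 8.31 in dorsal SCN, was likewise above its central arrays (-2.09 ± 0.290, adjusted p = 0.00105). Of the 13 neighbouring neuron markers 6 lay below the midpoint and 0 above, against 3.19% and 1.13% of all genes. Their summed level was 1760 to 3564 on dorsal arrays in batch A and 3370 to 3801 in batch B, above both other regions. Vip was at 8.29, 6.87, 8.14 and 10.55 in dorsal SCN, below both other regions on every array, and did not pass (1.30 ± 0.386, adjusted p = 0.0841). Avp was at 7.52, 8.06, 9.50 and 9.24 in dorsal SCN and below the midpoint in central SCN (-1.38 ± 0.185, adjusted p = 0.000808), and Penk did not depart from it (0.40 ± 0.215, adjusted p = 0.431).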

How the data were processed

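Affymetrix mouse expression arrays were hybridised with RNA amplified in 2 batches from laser-cut SCN subregions, 1 array per sample, 4 arrays in each of 6 groups. The authors deposited 1 log2 value per probe set and array (45101 probe sets, 24 arrays). MAS5, R 3.0.2 and GCRMA 2.32.0 are listed in the submitters' processing notes, with no role for each. Batch values are on separate scales, and the sources used here do not give the reason.

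Names came from the platform annotation (34945 with 1 symbol, 932 with several, 9160 with none, 64 controls). Entrez identifiers of 34741 were found in RefSeq (GRCm38.p6), which changed 0 symbols. For 9010 of 18193 genes with more than 1 probe set, the one with the highest mean over all arrays was taken. Genes with a log2 value over 4 on at least 4 arrays were tested (13494), and 4699 were not. Differences were fitted with limma 3.58.1 in R 4.3.3 (lmFit, eBayes, two-sided, Benjamini-Hochberg adjusted p under 0.05) on the 12 sham arrays with region means and batch, with 5.29 prior and 8 residual degrees of freedom. The light contrast used the 12 light arrays and the interaction all 24. The script was tested on simulated data. The number of arrays limits the precision.

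Replicate numbers were treated as pairs in an alternative fit. After removing group and batch means, same-numbered ventral and central sham arrays correlated at 0.222, 0.135, 0.207 and 0.125 for numbers 1 to 4, and at 0.104 to 0.537 among light arrays. The labels do not say what a number marks. Alternatives changed the filter, normalization, probe set, batch term, array weights, samples in the fit and single arrays.

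Named genes are the 12 higher and 12 lower called genes with the largest difference and 1 direction in both batches, called genes of 24 lists, the 2 members of each list with the smallest p, the 3 largest in each direction of the other contrasts, and a panel, part of which is not reported here. Abra, Qdpr, Nkx6-2, Gjb1, Oxt, Pomc, Npy, and the genes under other observations, were named after their values were seen. The arrays, lists and panel were chosen with earlier results of these data known. Summed levels of a list are sums of 2 to the power of the deposited value over its tested genes. Promoter windows from RefSeq were found for 286 of the 361 higher and 60 of the 77 lower genes.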

Additional observations from a re-analysis of the deposited data

Results flagged for a closer look

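In 4 of the 232 groups of 4 sham arrays examined, for 116 named genes in ventral and central SCN, 1 array stood far from the other 3 (ratio of its gap to the group's range past Dixon's critical value). Chance flags about 1 in 20 such groups, and the batch difference lies within every group. For Pmch the ratio was 0.934 on the ventral arrays, where array 3 was the high one, and 0.877 on the central arrays, where array 2 was the low one. For the neuronal marker Rbfox3 the ventral ratio was 0.868, and for the ribosomal gene Rps20 the central ratio was 0.905. Pmch was the only one of these genes that was called.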

How the results depend on the processing

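The count of 438 genes in the sham arrays became 772 with array weights, 193 in a fit over all 24 arrays, 56 in batch A alone and 31 in batch B alone, where fewer arrays remain. Without a batch term it was 0 in limma, with 77 at an unadjusted p under 0.05. Leaving out single arrays gave 246 to 375 genes, and 204 of the 438 were called in every such fit. None of the 438 reversed in any alternative, but in several of these a reversal could not occur. The fitted difference stayed the same without a batch term, with the replicate block and over all 24 arrays. It was also the same on only the ventral and central sham arrays. All 438 had the same direction in both batches, which fixes the sign in either batch alone. The lack of reversals is therefore no separate test of the calls. The share of higher genes among calls was 71.0% in batch B alone and 82.4% in the main setting. The 86 genes of the light arrays became 726 with array weights, 144 with the replicate block, 314 over all 24 arrays and 365 without dorsal light array 4, and 21 to 57 without single arrays. They became 0 without a batch term and within either batch, with 60, 705 (batch A) and 497 (batch B) unadjusted. The 584 genes of the midpoint contrast became 62 in batch A, 11 in batch B, 0 without a batch term (94 unadjusted) and 297 to 567 without single arrays. The test of region by light passed for 0 genes in limma under every alternative run, with 0 to 489 unadjusted. The causes of these changes were not tested. A test of region by batch, added after the data were seen, passed for 0 genes, with 524 unadjusted.

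Of the 75 named genes that passed, 21 lost their call when some 1 array was left out, and 10 with the mean of all probe sets of a gene (Nfib, Arntl2, Slc17a6, Sox9, Rgs5, Kcna1, Kcnh1, Kcnip4, Gng4 and Nectin3). The fit over all 24 arrays ended 20 calls (Ghsr, Grpr, Otp, Lmo3, Nfib, Arntl2, Pmch, Slc17a6, Slc6a3, Sox10, Sox9, Aldoc, Agt, Slc7a10, Cldn5, Abcb1a, Rgs5, Pltp, Gng4 and Lrrtm1), and the fit on only the 8 ventral and central sham arrays 7 (Ghsr, Grpr, Slc17a6, Slc7a10, Rgs5, Gng4 and Nectin3). Centring arrays on their medians ended the call for Slc17a6, Slc6a3, Slc7a10 and Rgs5, and quantile normalization within batches for Slc17a6 and Slc7a10. In the replicate block on the 12 sham arrays Ghsr lost its call (adjusted p = 0.0512) and 8 named genes gained one, each printed above. No other call of a named gene changed in that fit. On only the 8 ventral and central sham arrays the replicate block called 517 genes, against 397 without it. There 6 named genes lost their call and 7 gained one, against 7 lost and 3 gained without the block. Named genes that turned their direction were all among those that did not pass. The difference became 0.15 for Slc4a1, -0.13 for S100a9, -0.13 for Col1a2, 0.00082 for Tinf2, -0.37 for Nts, 0.16 for Rorb, 0.57 for Sst and -0.11 for Per1 in batch A alone. It became -0.019 for S100a9 and -0.010 for Gad2 with arrays centred on their medians. It became -0.089 for Gad1, -0.13 for Gad2 and -0.084 for Rgs16 in batch B alone. It became -0.039 for Gad2 and 0.0096 for Per2 with the mean of all probe sets. It became -0.0095 for Per1 with array weights. Leaving out single arrays gave ranges across 0 for Slc4a1 -0.11 to 0.046, S100a9 -0.050 to 0.13, Tinf2 -0.16 to 0.031, Gad1 -0.039 to 0.24, Gad2 -0.024 to 0.094, Prokr2 -0.011 to 0.26, Rorb -0.12 to 0.068, Sst -0.90 to 0.047 and Per1 -0.073 to 0.34. Levels near the bottom of the scale limit many differences: the lower group had a mean under 4 in batch A for 108 of the 438 genes and in batch B for 19.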

Other observations

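Of the 86 genes called in the light arrays 7 were not called in the sham arrays. Fos, an immediate early gene, differed by 1.35 (adjusted p = 0.0219) in the light and 0.18 (adjusted p = 0.957) in the sham arrays. Tinf2 and Grp are described above. F3, the tissue factor of clotting made by astrocytes, was at 1.03 (adjusted p = 0.0349) in light and 0.63 (adjusted p = 0.0579) in sham, and Sgk3, a kinase gene, was at 1.17 (adjusted p = 0.0419) and 0.74 (adjusted p = 0.0584). Clic5, a chloride intracellular channel protein, was at 1.12 (adjusted p = 0.0355) and 0.81 (adjusted p = 0.131). Nxph1, a neurexin ligand, was lower in both, at -1.12 (adjusted p = 0.0488) and -0.98 (adjusted p = 0.15). The test of region by light passed for none of them in limma.

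Among the 438 genes called in the sham arrays 3 had arrays of the regions that overlapped in a batch. They were Cbs, an enzyme of sulfur amino acids (1.14, adjusted p = 0.0359), Gm16551 (1.15, adjusted p = 0.0262) and Nxph2, another neurexin ligand (-0.83, adjusted p = 0.0473).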
